A study of Mus musculus with 12 samples.

Results

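The genes described here are the nuclear-encoded genes of the mitochondrial respiratory chain and of ATP synthase, 90 of the 43278 gene symbols measured in thioglycolate-elicited peritoneal macrophages (PMφs). They were taken by symbol (Nduf, Sdha to Sdhd, Uqcr, Cyc1, Cycs, Cox4 to Cox8 and Atp5, without pseudogenes named -ps), which matched 94 symbols, and 90 of these reached 10 or more in 3 or more of the 12 libraries. Cox4i2, Cox7b2, Cox8b and Cox8c did not reach that level. The 90 genes hold 36 subunits of complex I, 4 of complex II, 9 of complex III, 14 of complex IV and 15 of complex V (ATP synthase), with cytochrome c (Cycs), 8 assembly factors of complex I, and 3 associated genes, Cox7a2l and Ndufa4l2 beside complex IV and Atp5s beside complex V. They lie on 19 chromosomes, and the rule used no measured change.

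By the paper's methods, PMφs came from wild-type C57BL/6J mice of both sexes, aged 8 to 12 weeks, and were harvested 4 days after thioglycolate. They were pooled within an experiment and divided among 4 groups, and the adherent cells were used after 18 h in culture. The sex-linked genes given below show that not every library held cells of both sexes. Control PMφs received neither agent, oxLDL PMφs were cultured with 100 µg/ml human medium oxidized low-density lipoprotein (oxLDL) for 24 h, LPS PMφs were given 10 ng/ml ultrapure lipopolysaccharide (LPS), and oxLDL+LPS PMφs were given oxLDL and then LPS. The duration of LPS is not stated for these libraries. Poly(A) RNA was sequenced from 3 libraries a group, and a value here is the deposited normalized count, which behaves as a read count divided by 1 factor per library.

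Complexes I and II pass electrons from NADH and succinate to coenzyme Q, complex III passes them to cytochrome c, and complex IV passes them to oxygen. Complexes I, III and IV pump protons across the inner mitochondrial membrane, and complex V uses the gradient to make ATP. Most subunits are encoded in the nucleus, and many of their promoters are known targets of NRF1, of the ETS factor GABP and of YY1. In macrophages given LPS, the chain is known for a shift from ATP production toward reactive oxygen species and for the oxidation of accumulated succinate by complex II.

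The 200 bases before the RefSeq start of 4 genes are shown because they include the gene that rose most with LPS (Cycs), a complex IV subunit that rose (Cox6a1), a complex V subunit that fell (Atp5g2) and the gene that fell most (Ndufaf7). They are from GRCm38.p6, written in the direction of the gene, and lie at chr6:50566570-50566769 on the minus strand for Cycs, chr5:115348959-115349158 on the minus strand for Cox6a1, chr15:102671048-102671247 on the minus strand for Atp5g2 and chr17:78936935-78937134 on the plus strand for Ndufaf7. Capitals mark the motif letters searched on both strands, which are GCGCANGCG (NRF1, with GCGCATGCG as its strict form), CCGGAAG (ETS factors such as GABP), AAGATGGC (YY1), CACGTG (E-box) and TGACGTCA (CREB and ATF factors).
Cycs: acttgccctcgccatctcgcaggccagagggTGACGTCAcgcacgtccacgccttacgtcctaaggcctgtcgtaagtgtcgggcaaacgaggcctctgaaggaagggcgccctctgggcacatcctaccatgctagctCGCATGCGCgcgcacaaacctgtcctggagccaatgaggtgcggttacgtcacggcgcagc
Cox6a1: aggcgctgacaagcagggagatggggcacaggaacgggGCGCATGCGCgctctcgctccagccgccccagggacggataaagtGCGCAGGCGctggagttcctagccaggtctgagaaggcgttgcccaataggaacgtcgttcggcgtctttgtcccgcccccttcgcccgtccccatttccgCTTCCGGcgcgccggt
Atp5g2: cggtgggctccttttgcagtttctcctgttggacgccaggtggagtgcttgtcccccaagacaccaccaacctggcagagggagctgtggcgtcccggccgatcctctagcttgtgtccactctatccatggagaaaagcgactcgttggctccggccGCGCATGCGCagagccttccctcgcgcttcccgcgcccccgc
Ndufaf7: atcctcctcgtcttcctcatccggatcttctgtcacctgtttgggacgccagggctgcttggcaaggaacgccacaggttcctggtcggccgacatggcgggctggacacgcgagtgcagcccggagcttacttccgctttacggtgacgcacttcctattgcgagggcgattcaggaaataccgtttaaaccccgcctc
Cycs, Cox6a1 and Atp5g2 hold the strict NRF1 letters, Cycs also holds the CREB letters, and Ndufaf7 holds none of the 5 motifs in this window. RefSeq promoters of 300 bases (250 before and 50 after the start) were matched for 75 of the 90 genes, 81 promoters in all. The strict NRF1 letters were in 13.6% of them, against 3.46% of the 13061 promoters of genes past the level filter and 1.75% of all 32851 promoters. The YY1 letters were in 14.8% against 4.37% and 2.75%, and the TGACGTCA letters in 6.17% against 2.97% and 1.79%. The ETS letters, at 21% against 17% and 8.86%, and the E-box, at 11.1% against 9.85% and 7.15%, lay closer to the genes past the filter. Among genes called with LPS, the strict NRF1 letters were in 4 of 15 promoters of those that rose and in 2 of 12 promoters of those that fell. These shares describe letters in a window and were not tested.

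Normalized counts summed to 17152972 to 17709731 in control libraries, 17440329 to 17444102 with oxLDL, 22590678 to 26384551 with LPS and 22071853 to 23346854 with oxLDL+LPS. The 90 genes took 0.485% to 0.549%, 0.516% to 0.562%, 0.395% to 0.427% and 0.433% to 0.482% of these sums. Macrophage markers were high in every library (7 of 8 listed symbols were in the table, all 7 past the filter, summing to 226714 to 318793), while Ly6g of neutrophils and Prg2 of eosinophils were at 0. Of 6 neutrophil markers only S100a8 passed the filter, at 31 to 37 in control libraries, 31 to 49 with oxLDL, 74 to 178 with LPS and 118 to 248 with oxLDL+LPS. The 7 mesothelial and fibroblast markers summed to 3941 to 24958 and varied within each group, and of 4 eosinophil markers only Siglecf passed the filter, at 315 to 383 in control libraries and 99 to 124 with LPS. Of 5 T cell markers only Lck passed, at 16 to 18 in control libraries and 102 to 234 with LPS. The sex-linked genes of replicate 1 differed between libraries with and without LPS: Xist was at 1 and 2 in control and oxLDL replicate 1 but at 6331 and 3812 in LPS and oxLDL+LPS replicate 1, and Ddx3y of the Y chromosome was at 1156 and 1132 against 459 and 439. These values go against 1 pool for replicate 1 across LPS, so the LPS comparisons that use the replicate number are also given without replicate 1. In replicate 1, the sex of the cells and LPS cannot be told apart. In replicate 2 of the 4 groups Ddx3y was at 0 to 2 and Xist at 5933 to 7751. In replicate 3 Ddx3y was at 707 to 775 and Xist at 3538 to 4217. The part of these differences in the results below was not tested. Fewer cells of a type and less RNA per cell cannot be told apart in such libraries.

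Before treatment, the levels of the subunits spread over more than 2 orders of magnitude per kilobase of exon (GENCODE vM21, all exons of a gene merged). In control PMφs, the median subunit stood at 353 normalized counts per kilobase in complex I, 716 in complex II, 818 in complex III, 694 in complex IV and 709 in complex V. Cox8a, a small complex IV subunit, was the highest at 2763 per kilobase, followed by Atp5a1, the α subunit of the ATP synthase head, at 2565 and by Cox4i1, the largest nuclear-encoded complex IV subunit, at 2485. Complex III was the most even set, from 519 for Uqcrc1 to 1061 for Uqcrb. Complex I ran from 17.5 for Ndufb2 to 1627 for Ndufa1, and complex IV from 11.4 for Cox6b2, known as a testis form, to Cox8a. Merged exon length counts rarely used exons, so these levels are approximate for single genes.

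Cycs, the electron carrier between complexes III and IV, rose 3.56-fold with LPS, whereas the complex I assembly factor Ndufaf7 fell to 0.319 of its control level, and no subunit of complexes I to V changed as much as either. Of 89 genes tested, 19 rose and 11 fell (limma, Benjamini-Hochberg adjusted p under 0.1), against 31.4% of 13023 genes that rose and 30.3% that fell. Both counts lie below the background shares, which is a description and not a test. With the replicate number as a block 30 rose and 11 fell, against 68.7% of all genes called in either direction, and the block without replicate 1 gave 27 and 11, against 66.9%. The median change was 0.08 on the log2 scale, against -0.001 over all genes tested. Without replicate 1 in both groups, 19 genes were called, without replicate 2 18 and without replicate 3 16, and Cycs and Ndufaf7 passed each time. The share of all genes called was not counted in these smaller fits, so their counts cannot be called particular to the 89 genes. This comparison asks how PMφs without oxLDL respond to LPS.

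Cycs stood at 421, 327 and 411 normalized counts in control PMφs and at 1510, 1104 and 1537 with LPS. Every LPS library lay far above every control library, and the log2 change was 1.83 ± 0.16 (SE, adjusted p = 5.57e-05). The gene lies at chr6:50562563-50566538 on GRCm38, on the minus strand. With oxLDL, Cycs went from 473, 361 and 498 to 1229, 1074 and 1223 with LPS, a change of 1.41 ± 0.14 (adjusted p = 0.000169). These 2 LPS comparisons share no library. Same-numbered libraries of different groups still correlated in their deviations from group means, so the 2 are not independent repeats.

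**Figure D1:**
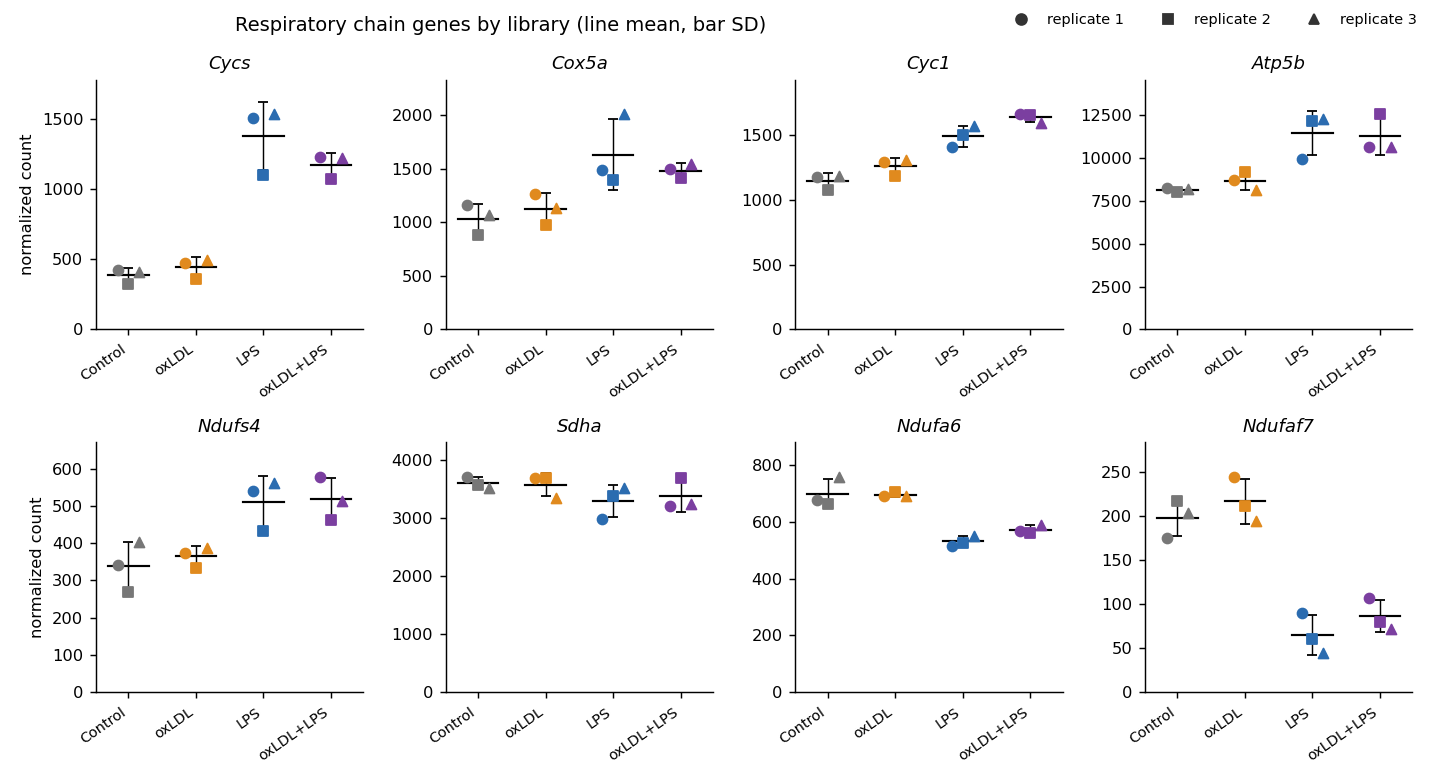
Normalized counts (y axes, from 0) of 8 genes in the 12 libraries by group (x axes); the marker shape gives the replicate number, the line the mean and the bar the SD of 3 libraries. Cycs was at 327 to 421 in control and 1104 to 1537 in LPS libraries, and Ndufaf7 at 175 to 217 and 45 to 90.

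Complex III, which hands electrons to cytochrome c, had 5 of 9 subunits higher with LPS, against 31.4% of all genes tested, and none lower, with a median change of 0.27. Cyc1, its cytochrome c1, was at 1177, 1075 and 1190 in control PMφs and at 1409, 1505 and 1570 with LPS. The groups did not overlap, and Cyc1 rose 1.30-fold (log2 change 0.38 ± 0.09, adjusted p = 0.0079). Uqcrb, a small subunit near the coenzyme Q site, went from 915, 891 and 983 to 1162, 1233 and 1308, a 1.33-fold rise (adjusted p = 0.00614). Uqcrc1, a core protein of the matrix side, went from 2214, 2097 and 2127 to 2326, 2674 and 2778, a smaller rise of 0.27 ± 0.09 on the log2 scale (adjusted p = 0.0432) that lost its call without control 2, control 3 or LPS 3 (adjusted p 0.0116 to 0.124 over the single libraries left out). Uqcrc2, the other core protein, and Uqcrq also rose. Uqcrfs1, the Rieske iron-sulfur protein, was at 1276, 1021 and 1288 against 1256, 1279 and 1568, and these overlapping groups were not called (adjusted p = 0.249).

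Complex IV had 5 of 14 subunits higher, a share near the 31.4% of all genes, and none lower, with a median change of 0.32. No difference between complexes was tested. Cox5a, a subunit on the matrix side, went from 1157, 882 and 1064 to 1489, 1397 and 2009, a 1.57-fold rise (log2 change 0.65 ± 0.16, adjusted p = 0.0111). Its 3 LPS libraries lay above the control libraries, with LPS 3 apart from the others. Cox6a1 went from 1652, 1589 and 1596 to 1962, 2048 and 2154, rising 1.27-fold (adjusted p = 0.00749). Cox5b, Cox6b1 and Cox6c rose as well, but the groups of Cox6b1 overlapped (1555, 1618 and 1853 against 1755, 2053 and 2477, adjusted p = 0.0937) and its call was lost without control 1, control 2, LPS 2 or LPS 3 (0.0254 to 0.259 over the single libraries left out). Cox4i1, which is assembled early with Cox5a, was at 3994, 3216 and 4344 in control PMφs and 3676, 3336 and 4632 with LPS, a log2 change of 0.01 ± 0.16 that was not called (adjusted p = 0.969). Cox8a was also not called, at 1749, 1567 and 1815 against 1691, 1755 and 2236 (adjusted p = 0.39).

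Complex V had 4 of 15 subunits higher and 1 lower, both shares below the 31.4% and 30.3% of all genes, with a median change of 0.21. Atp5b, the catalytic β subunit, went from 8236, 8034 and 8170 to 9961, 12141 and 12287, a 1.40-fold rise (log2 change 0.49 ± 0.11, adjusted p = 0.00718). All 3 LPS libraries lay above the controls. Its partner in the head, Atp5a1, was at 8260, 7835 and 8033 against 8586, 8552 and 10238, which did not overlap either but was not called (1.13-fold, adjusted p = 0.191). Atp5j, of the peripheral stalk, went from 998, 948 and 970 to 1187, 1174 and 1177 (1.21-fold, adjusted p = 0.0181, and 0.123 without replicate 3 in both groups), and Atp5f1 and Atp5k also rose.

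Complex I had 3 of 36 subunits called higher and 5 lower, against 31.4% and 30.3% of all genes, with a median of 0.06. Of the 36 changes 24 lay above 0, against 6505 of all 13023 genes. Ndufs4, an accessory subunit of the matrix arm, went from 342, 270 and 402 to 540, 433 and 561, a 1.52-fold rise (log2 change 0.61 ± 0.17, adjusted p = 0.0194) that did not pass without replicate 1 in both groups (0.58, adjusted p = 0.112). Ndufa6, an accessory subunit of the LYR family, went from 677, 665 and 759 to 516, 527 and 551, so that it stood at 0.76 of control (log2 change -0.40 ± 0.10, adjusted p = 0.00966). Ndufs5 and Ndufa12 also rose, and Ndufs7, Ndufs8, Ndufb10 and Ndufb11 fell. Of these, Ndufs7 and Ndufs8 carry iron-sulfur clusters on the way to coenzyme Q.

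The 7 nuclear-encoded core subunits of complex I, which hold its redox centers, were set apart after the values were seen. They had a median of -0.13 with 0 higher and 2 lower calls, and the 29 accessory subunits had a median of 0.06 with 3 higher and 3 lower. Over all genes 31.4% rose and 30.3% fell, so the lower share of the 7 core subunits lay near that of all genes. With LPS after oxLDL, the core subunits had 1 higher and 1 lower call and a median of -0.096. The accessory subunits then had 3 higher and 2 lower calls and a median of 0.12, against 28.2% and 26.3% of all genes. No difference between the 2 sets was tested. Ndufs1, the largest core subunit, was at 1207, 1086 and 1161 in control PMφs and 994, 1059 and 1102 with LPS (adjusted p = 0.251). Ndufv1, which binds NADH, was at 922, 792 and 855 against 711, 776 and 804 (adjusted p = 0.201). Neither was called, and their groups overlapped. Ndufs3 (544, 598 and 633 against 628, 657 and 729) and Ndufa10 (1060, 1104 and 1067 against 1079, 1151 and 1102) were not called either.

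In complex II, which is succinate dehydrogenase, 0 of 4 subunits were called by limma (0 at an unadjusted p under 0.05, and 0 with the replicate block), and all 4 log2 changes were below 0, between -0.13 and -0.02. Sdha, the flavoprotein that oxidizes succinate, was at 3706, 3570 and 3517 in control PMφs and 2977, 3378 and 3515 with LPS. Although its 3 LPS libraries lay below the controls, the closest pair differed by only 3517 against 3515, and the change of -0.13 ± 0.09 was not called (adjusted p = 0.265). Sdhb, the iron-sulfur subunit, was at 1210, 1171 and 1376 against 1122, 1136 and 1310 (adjusted p = 0.583). Sdhc, a membrane anchor, was at 1518, 1323 and 1407 against 1350, 1332 and 1510 (adjusted p = 0.882).

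Among the 8 assembly factors of complex I, 1 rose and 3 fell with LPS, against the same 31.4% and 30.3%. Ndufaf7, a methyltransferase, went from 175, 217 and 204 to 90, 60 and 45 (log2 change -1.65 ± 0.26, adjusted p = 0.00109). The groups were well apart, and in each replicate number the LPS library was the lower. Its position is chr17:78937136-78948052 on GRCm38, on the plus strand. Ndufaf3 went the other way, from 175, 163 and 167 to 203, 214 and 260 (1.33-fold, adjusted p = 0.0377), a call lost without control 2 or LPS 3 (0.0291 to 0.111 over the single libraries left out). Ndufaf4 and Atp5sl, an assembly factor despite its symbol, fell. Supercomplexes were not measured. Of the associated genes, Cox7a2l, known as a supercomplex factor, fell from 2410, 2201 and 2968 to 1343, 1919 and 1936 (0.682 of control, log2 change -0.55 ± 0.17, adjusted p = 0.0279). That call was at its limit without replicate 1 in both groups (-0.41, adjusted p = 0.101). Atp5s fell too.

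**Figure D2:**
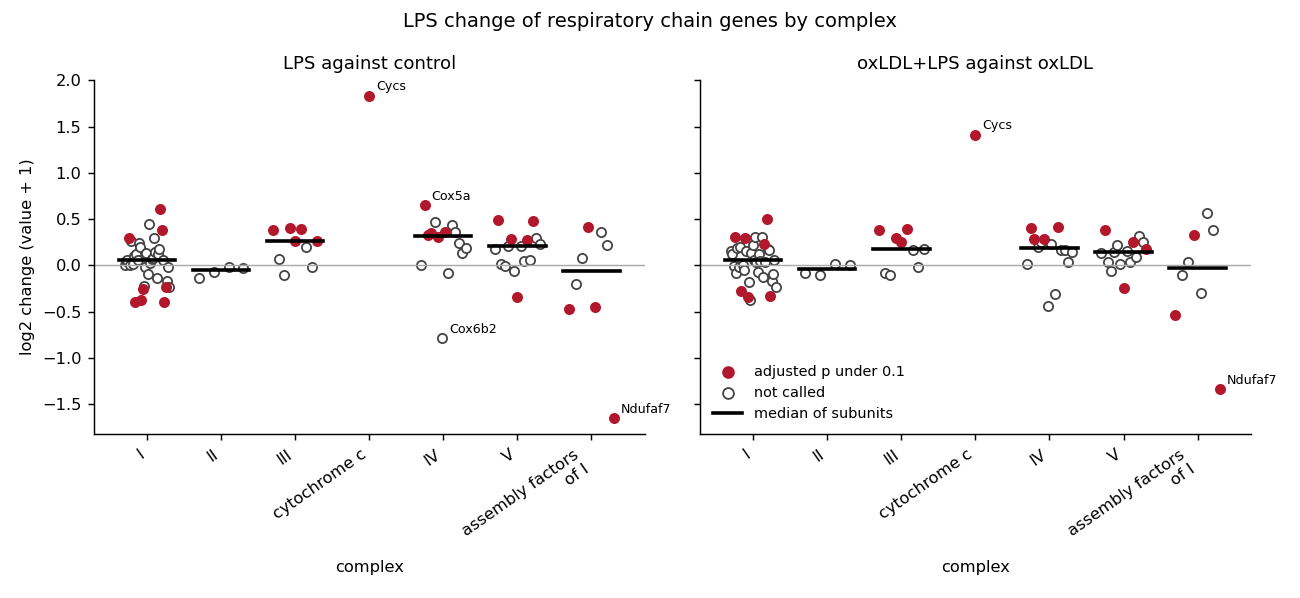
Log2 change with LPS (y axis, on the log2 of value plus 1) of each gene by complex (x axis), without oxLDL (left) and with oxLDL (right). Filled points have an adjusted p under 0.1 and lines are medians, which without oxLDL are 0.27, 0.32 and 0.21 in complexes III, IV and V, 0.06 in complex I and -0.05 in complex II.

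The same comparison in oxLDL-loaded PMφs (oxLDL+LPS against oxLDL) gave 17 higher and 8 lower genes of 89, against 28.2% and 26.3% of 12900 genes tested. The median change was 0.12, against -0.02 over all genes. With the replicate block 24 rose and 11 fell, against 63.4% of all genes called in either direction. The block without replicate 1 gave 23 and 10, against 62.3%. In fits without the block, 15 genes were called without replicate 1 in both groups and 10 without replicate 3. The share of all genes called was not counted there. In both comparisons 13 genes rose, which are 68.4% of those that rose without oxLDL and 76.5% of those that rose with it, and 8 fell, which are 72.7% and 100.% of the 2 sets of fallen genes. This overlap was not counted over all genes, so these shares cannot be called particular to the 89 genes. By complex, to be read against the same 28.2% and 26.3%, 4 of 36 subunits rose and 3 fell in complex I, 0 of 4 were called in complex II, 4 of 9 rose in complex III, 4 of 14 rose in complex IV, and 3 of 15 rose and 1 fell in complex V. The medians were 0.05, -0.04, 0.18, 0.19 and 0.15.

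Cyc1 went from 1293, 1187 and 1309 with oxLDL to 1665, 1658 and 1598 with oxLDL+LPS, a log2 change of 0.38 ± 0.08 (adjusted p = 0.0055). Ndufs4 went from 373, 333 and 388 to 578, 463 and 514 (0.50 ± 0.12, adjusted p = 0.0111), and Atp5b from 8705, 9160 and 8105 to 10624, 12556 and 10653 (0.38 ± 0.10, adjusted p = 0.0203). In all 3 genes the groups did not overlap, and the call of Atp5b was lost without replicate 3 in both groups (adjusted p = 0.112). Cox5a went from 1268, 977 and 1133 to 1495, 1409 and 1544 (0.40 ± 0.11, adjusted p = 0.0193, and 0.138 without replicate 3 in both groups), and Cox6b1 from 1762, 1759 and 1803 to 2216, 2126 and 2134 (0.28 ± 0.07, adjusted p = 0.0122). Of the 11 genes that fell without oxLDL, 8 fell here as well, and Ndufs8, Ndufb11 and Ndufaf4 were not called (adjusted p = 0.16, 0.157 and 0.104). Ndufaf7 went from 245, 212 and 195 to 107, 80 and 72 (-1.34 ± 0.19, adjusted p = 0.00108), and Ndufa6 from 692, 705 and 690 to 569, 561 and 590 (-0.28 ± 0.08, adjusted p = 0.0228). The call of Ndufa6 was lost without any 1 of the replicate numbers in both groups (adjusted p = 0.102 to 0.117). Cox7a2l went from 2389, 2214 and 2433 to 1575, 1871 and 1739 (-0.44 ± 0.09, adjusted p = 0.00581).

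Sdha, at 3692, 3689 and 3342 with oxLDL and 3204, 3680 and 3240 with oxLDL+LPS, was not called (adjusted p = 0.48), nor was Sdhb, at 1374, 1262 and 1332 against 1240, 1149 and 1319 (adjusted p = 0.379). Uqcrb (1024, 984 and 1057 against 1286, 1291 and 1184, adjusted p = 0.0182) and Uqcrc1 (2422, 2289 and 2281 against 2739, 2755 and 2863, adjusted p = 0.0206) rose again. The call of Uqcrb was lost without replicate 1 or replicate 2 in both groups (adjusted p = 0.11 and 0.101), and that of Uqcrc1 without replicate 3 (0.191). Cox6a1 was not called (1875, 1637 and 1620 against 2058, 1831 and 2007, adjusted p = 0.112). With the replicate number as a block, Cox6a1 passed (adjusted p = 0.0559, and 0.0563 without replicate 1).

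**Figure D3:**
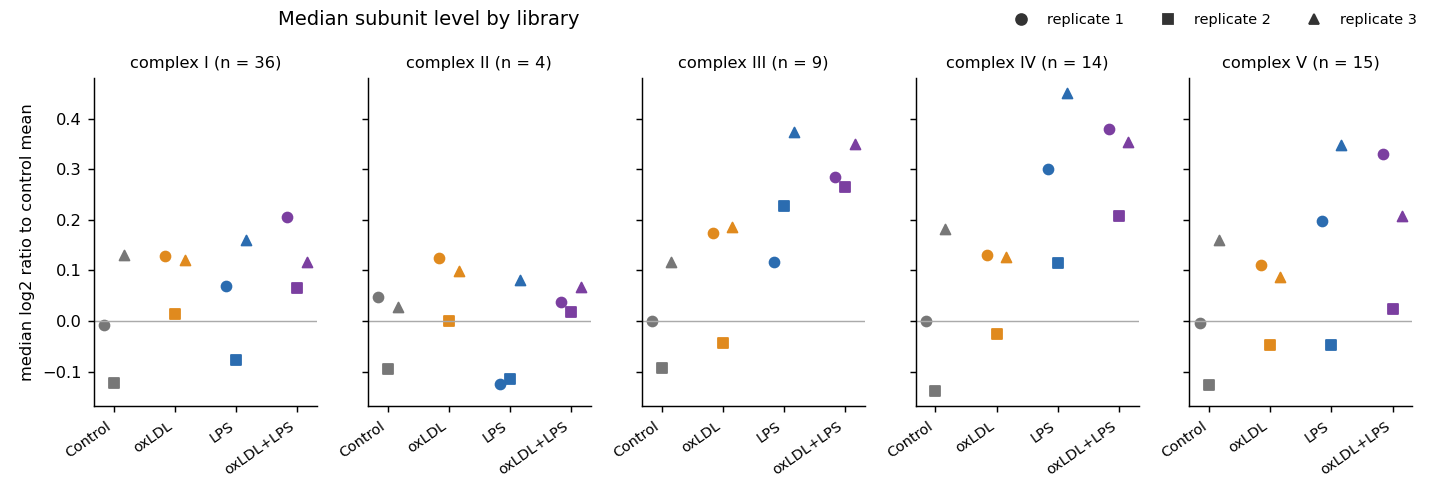
Median over the subunits of each complex of the log2 ratio of a library to the control mean (y axis), for the 12 libraries by group (x axis); the marker shape gives the replicate number. In complex III the control libraries lay at -0.09 to 0.12 and the LPS libraries at 0.12 to 0.37, while in complex II the LPS libraries lay at -0.12 to 0.08.

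The size of these changes depends on the scale on which libraries are compared. The deposited scaling put the median gene at about 0, whereas rescaling the libraries to equal totals put the median change of all genes at -0.48 for LPS against control and at -0.41 for oxLDL+LPS against oxLDL. On that scale 1 gene, Cycs, rose and 57 fell with LPS, while 2166 rose and 7224 fell of all 12938 genes tested. With LPS after oxLDL 1 rose and 47 fell, while 2031 rose and 6660 fell of 12882. With equal upper quartiles the shifts were -0.24 and -0.23, and the calls 3 higher and 26 lower, and 2 higher and 24 lower. Over all genes these calls were 2872 higher and 5254 lower of 12919, and 2574 higher and 4961 lower of 12795. Such a rescaling moves all genes of a comparison alike, so the position of the genes relative to all genes is fixed by construction. The rises described above are therefore rises relative to the median gene. On equal totals 5 of 89 genes were higher with LPS, against 60 as deposited, and 7 after oxLDL, against 60. Among called genes with values by library, the rises of Cyc1, Uqcrb, Uqcrc1, Cox6a1, Cox6b1, Atp5j and Ndufaf3 change sign on that scale. So does that of Atp5b with LPS after oxLDL. The rise of Cycs is larger than the shift and keeps its sign.

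Several subunits have paralogs that can take each other's place. Ndufa4, a subunit of complex IV first assigned to complex I, was at 892, 684 and 1092 in control PMφs and 1098, 739 and 1209 with LPS (adjusted p = 0.52). Its paralog Ndufa4l2 stayed at 0 to 12 in every library. The related gene AA467197, whose product can replace NDUFA4 in complex IV and which the symbol rule does not take, went from 112, 121 and 119 to 8830, 14586 and 12954, a 100.3-fold rise (log2 change 6.65 ± 0.18, adjusted p = 2.35e-07). AA467197 thus passed from below Ndufa4 to above it in every LPS library as normalized counts, which are not corrected for length. With oxLDL, AA467197 went from 114, 111 and 88 to 4646, 12100 and 5706 with LPS (65.4-fold, adjusted p = 9.87e-06). Against LPS alone, AA467197 was lower with oxLDL+LPS in all 3 replicate numbers, at 0.577 of its level, which did not pass without the replicate block (adjusted p = 0.714) and passed with it (0.0176). The interaction did not pass (adjusted p = 1).

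The c ring of ATP synthase is encoded by Atp5g1, Atp5g2 and Atp5g3, which give the same mature protein. Atp5g1 was at 924, 833 and 975 in control PMφs and 824, 857 and 944 with LPS (adjusted p = 0.668). Atp5g2 fell from 1174, 1089 and 1336 to 787, 962 and 1112 (0.79 of control, adjusted p = 0.0808), with overlapping groups and a call lost without control 1, control 3, LPS 1 or LPS 2 (0.0325 to 0.232 over the single libraries left out). Atp5g3 was at 1842, 1356 and 1730 against 2013, 1579 and 2118, higher with LPS in each replicate number, and passed with the replicate block (adjusted p = 0.0556, and 0.0456 without replicate 1) but not without it (0.281). With oxLDL+LPS against oxLDL, Atp5g2 was again lower (1216, 1148 and 1199 against 904, 1061 and 1047, adjusted p = 0.0597), a call lost without oxLDL 1, oxLDL 2, oxLDL 3 or oxLDL+LPS 1 (0.0487 to 0.161). Atp5g1 (970, 929 and 944 against 991, 913 and 970) and Atp5g3 (2011, 1400 and 1830 against 2130, 1655 and 2009) were not called.

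In complex IV, the muscle and testis forms were low in every group: Cox6a2 was at 7 to 41, Cox6b2 at 5 to 18 and Cox7a1 at 9 to 19, and none was called in any comparison. Cox6a2 was highest in replicate 2 of each group, at 26, 29, 39 and 41. Cox4i2, the form of COX4 induced by low oxygen in other cells, was at 0 to 3. The ubiquitous Cox7a2 went from 713, 589 and 920 to 915, 826 and 1277 with LPS, a log2 change of 0.44 ± 0.21 that did not pass (adjusted p = 0.111) except with the replicate block (0.0037, and 0.00489 without replicate 1). With oxLDL it went from 834, 624 and 877 to 1119, 869 and 1103 with LPS (0.41 ± 0.16, adjusted p = 0.0719), and that call was lost without oxLDL 1, oxLDL 2, oxLDL+LPS 1 or oxLDL+LPS 3 (0.0321 to 0.198).

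**Figure D4:**
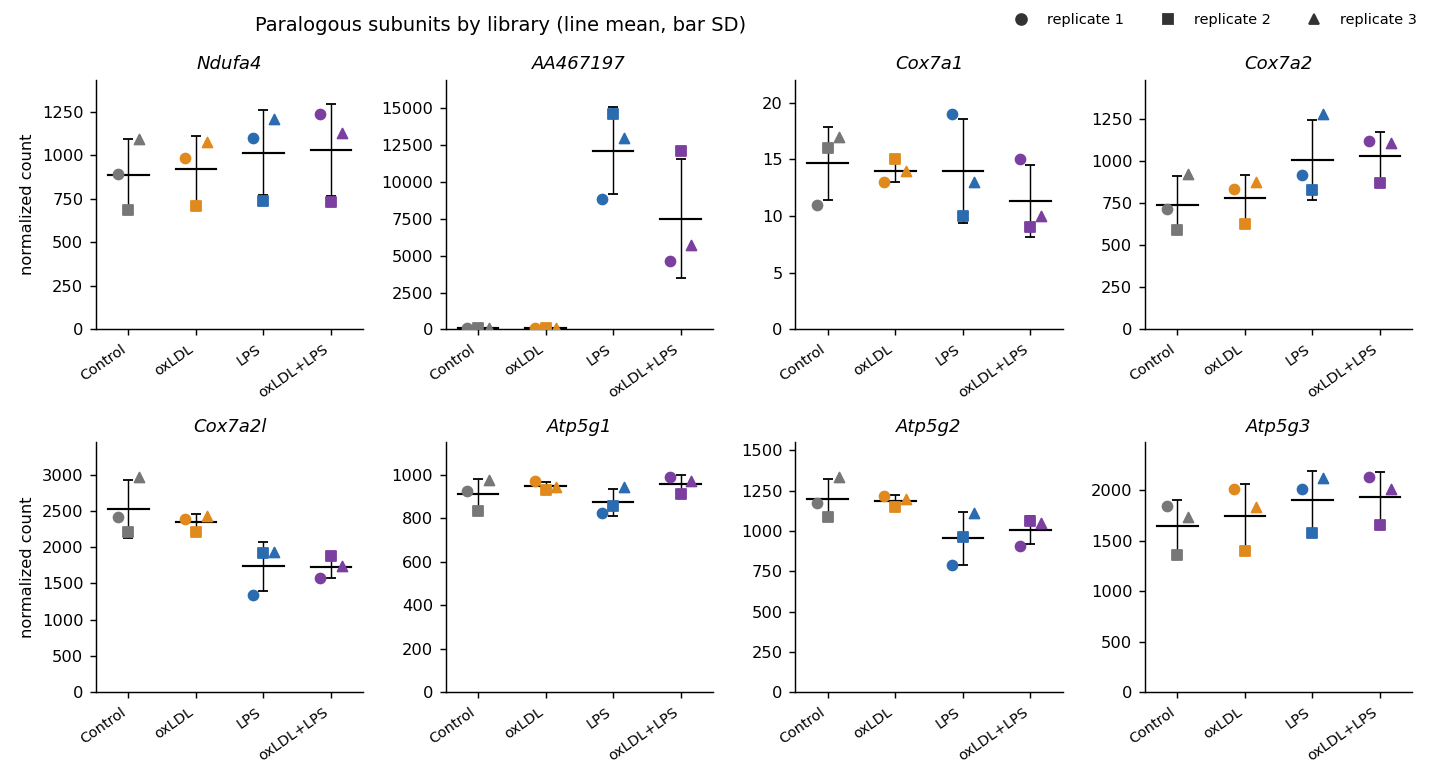
Normalized counts (y axes, from 0) of paralogous subunits and of AA467197 in the 12 libraries by group (x axes); the marker shape gives the replicate number, the line the mean and the bar the SD of 3 libraries. AA467197 was at 88 to 121 without LPS and at 4646 to 14586 with it, while Ndufa4 stayed at 684 to 1236.

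The effect of oxLDL without LPS, the comparison for which the study describes its test, was small for single genes. From this comparison the paper reports oxidative phosphorylation as upregulated with oxLDL, by a Hallmark analysis of genes ranked by DESeq2. It also reports a significant rise of Cd36. That pathway analysis was not repeated, and the counts below are of single genes by limma, a different measure. Of 89 genes, 0 were called, as were 0% of 12751 genes tested, and 0 had an unadjusted p under 0.05, against 381 of all genes. With the replicate number as a block, 0 were called against 4.71% of all genes. An unadjusted p under 0.05 was then held by 14 of the 89, a share near that of all genes (2047 of 12751). In the direction of the change, 77 of the 89 were higher with oxLDL, against 6151 of all 12751 genes. The median was 0.08, against -0.005 over all genes. In all 3 replicate numbers, 32 were higher, against 17.5% of all genes, and 0 were lower, against 2468 of all 12751. The groups did not overlap for 4 genes that were higher and 0 that were lower, against 3.79% and 3.91% of all genes.

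The smallest p-values with oxLDL belonged to Ndufaf3 and to 3 subunits of complex III. Ndufaf3 was at 192, 211 and 192 with oxLDL, against 175, 163 and 167 in control PMφs (log2 difference 0.23 ± 0.10, adjusted p = 1). For Uqcrc1 the values were 2422, 2289 and 2281 against 2214, 2097 and 2127 (0.12 ± 0.06), for Uqcrb 1024, 984 and 1057 against 915, 891 and 983 (0.14 ± 0.07), and for Cyc1 1293, 1187 and 1309 against 1177, 1075 and 1190 (0.14 ± 0.07). All of these were higher in each replicate number, and none passed. Ndufc1 (295, 237 and 261 against 230, 183 and 255), Sdhc (1608, 1398 and 1522 against 1518, 1323 and 1407), Cox8a (1865, 1762 and 1846 against 1749, 1567 and 1815) and Atp5j (1128, 1053 and 996 against 998, 948 and 970) had the smallest p-values of complexes I, II, IV and V. Cycs was at 473, 361 and 498 against 421, 327 and 411, higher in each number and not called.

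The oxLDL difference varied with the replicate number. The median over the 89 genes was 0.13 in replicate 1, 0.08 in replicate 2 and -0.02 in replicate 3. The levels of the genes also moved with the number inside each group: relative to the group mean, the median gene lay at -0.09 to -0.12 in replicate 2 of the 4 groups and at 0.02 to 0.13 in replicate 3, while the median of all genes lay between -0.02 and 0.04 in all 12 libraries. Over all genes, the 589 with merged exons under 1000 bases lay at 0.07 to 0.12 in replicate 3 and at -0.02 to -0.07 in replicate 2. The sum of mesothelial and fibroblast markers also differed between the numbers. The part of either in the result was not tested.

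**Figure D5:**
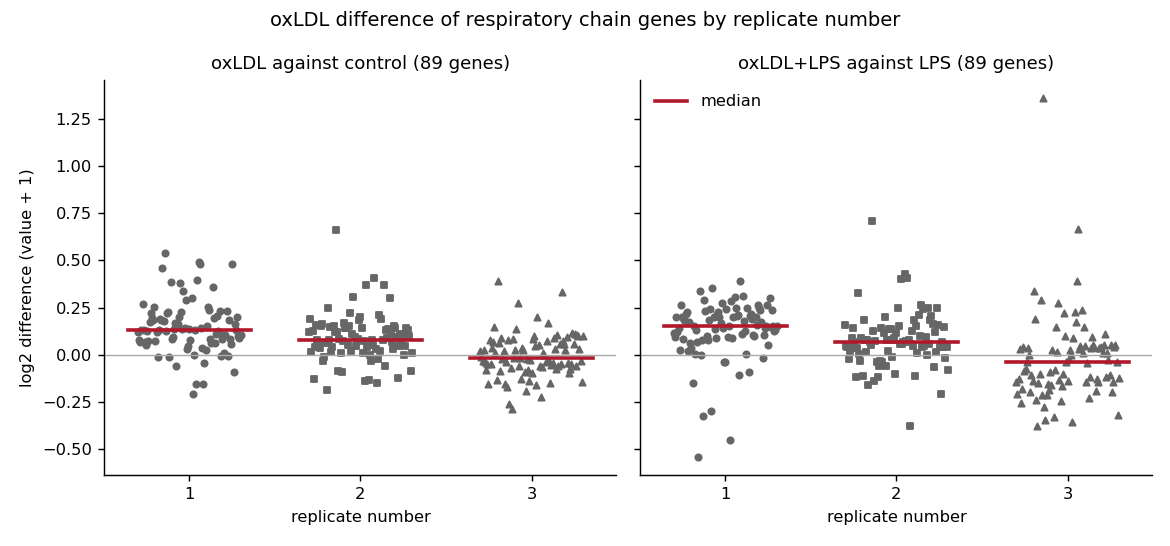
Log2 difference (y axis) of each of 89 respiratory chain genes between same-numbered libraries (x axis, replicate number), for oxLDL against control (left) and oxLDL+LPS against LPS (right); lines are medians. The medians were 0.13, 0.08 and -0.02 on the left and 0.15, 0.07 and -0.04 on the right.

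With LPS present, oxLDL again gave no call among the 89 genes (0 of 89, against 0% of 12786 genes). At an unadjusted p under 0.05 there were 0, against 890 of all genes. With the replicate block, 0 were called against 13.2% of all genes, and 4 had an unadjusted p under 0.05, against 3029 of all 12786. In direction, 65 were higher and 24 lower with oxLDL+LPS than with LPS, against 6115 and 6670 of all 12786 genes. The median was 0.05 against -0.01 over all genes, and 30 were higher in all 3 replicate numbers, against 21.0% of all genes. On the scale of equal totals 84 of 87 were higher, with a median of 0.14 against 0.08 over all genes. The groups did not overlap for 10 genes that were higher and 0 that were lower, against 6.18% and 6.39%, and 7 of the 10 were subunits of complex I. Ndufa10, of the membrane arm, had the smallest p, at 1242, 1322 and 1219 with oxLDL+LPS against 1079, 1151 and 1102 with LPS (0.18 ± 0.09, adjusted p = 0.727). Cyc1 was at 1665, 1658 and 1598 against 1409, 1505 and 1570, and the core subunits Ndufs1, at 1157, 1088 and 1144 against 994, 1059 and 1102, and Ndufv1, at 838, 896 and 809 against 711, 776 and 804, were higher in each number without passing. Complex IV was the set with the lowest median, at -0.01, with 9 of its 14 subunits lower.

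Whether LPS acted differently with oxLDL was tested by the interaction over all 12 libraries. None of the 90 genes passed (0% of 13482 genes without the block and 0% with it). Without the replicate block 0 had an unadjusted p under 0.05, against 418 of all genes. With the block 1 had it, against 967 of all genes. Cycs had the smallest p, with an LPS change that was different by -0.42 ± 0.23 (log2, adjusted p = 1) with oxLDL. The difference was -0.46, -0.18 and -0.61 in replicates 1, 2 and 3. Of the complex IV subunits 12 of 14 lay below 0 (median -0.08), among them Cox5a (-0.24 ± 0.21) and Cox6a1 (-0.15 ± 0.11), and in complex III 8 of 9 did (median -0.01). Complex I subunits lay on both sides, 22 above and 14 below. In all, 39 of 90 genes lay above 0, against 6503 of all 13482 genes. On the scale of equal totals, which put the median of all genes at 0.08, 68 of 89 did.

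Genes of the same pathway that the symbol rule does not take were read from lists. Of 36 other assembly factors tested, 10 rose and 11 fell with LPS (median -0.02), shares near the 31.4% and 30.3% of all genes, and 9 rose and 7 fell with LPS after oxLDL, against 28.2% and 26.3%. For complex IV, Coa5 (log2 change 1.92), Cox18 (1.56) and Sco1 (1.52), the latter a copper chaperone, rose, and Surf1 fell by 0.65. Tmem126b, an assembly factor of complex I, fell by 1.25, as did Sdhaf1 of complex II by 1.23. Lyrm7 of complex III was lower by 1.23, but at values near the filter, which it passed only through the control libraries. It was at 19, 20 and 11 in control PMφs and 6, 6 and 7 with LPS, so its fall is not relied on. With oxLDL it was at 8, 19 and 15, against 15, 11 and 10 with oxLDL+LPS. Of 11 genes of coenzyme Q synthesis, 3 rose and 2 fell with LPS, neither share above that of all genes, with Pdss1, which makes its side chain, at 1.91 and Coq2, which joins the chain to the ring, at 0.62. Coq10a, a coenzyme Q-binding protein, fell by 2.13, whereas its paralog Coq10b rose.

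Of 14 regulators of respiratory chain genes, 9 rose and 4 fell with LPS, against 31.4% and 30.3% of all genes, and 9 rose and 3 fell with LPS after oxLDL, against 28.2% and 26.3%. Ppargc1a, the coactivator PGC-1α, went from 45, 85 and 67 in control PMφs to 4, 6 and 4 with LPS, and Ppargc1b, its paralog, from 57, 63 and 54 to 31, 22 and 31. Both fell (log2 changes -3.53 and -1.04, adjusted p = 9.33e-05 and 0.00648), while Nrf1 rose by 0.43, Gabpb1 by 1.46 and Tfam, a mitochondrial transcription factor, by 0.69. The 4 that fell also include Polrmt and Tfb2m, which act in mitochondrial transcription as well. Polrmt went from 458, 457 and 417 to 325, 397 and 366, and Tfb2m from 201, 208 and 191 to 118, 158 and 117. Hif1a, the subunit of the low-oxygen response, went from 2033, 2076 and 2003 to 9099, 7885 and 9081 (2.09, adjusted p = 1.46e-06). Of 14 modulators and supercomplex factors, 4 rose and 3 fell, both shares below those of all genes, with Higd1a at 0.54 and the uncoupling protein Ucp2 at -0.54 beside AA467197. Of 11 mitochondrially encoded subunits tested, 1 (mt-Co2, at 18, 26 and 34 against 44, 35 and 48) rose and 0 fell, again below those shares. Poly(A) selection makes levels of mitochondrial transcripts uncertain. In the same control libraries mt-Co1 was at 130434, 126985 and 134422, so the low values of mt-Co2 may not give its level. With oxLDL alone 0 genes of these 5 lists were called by limma, and 2 had an unadjusted p under 0.05, against 381 of all 12751 genes tested.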

How the data were processed

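Poly(A) RNA of 12 cultures was sequenced by the authors, whose steps were adaptor trimming (Trimmomatic 0.32), alignment to GRCm38 (STAR 2.5.1b), exonic counting on GENCODE vM4 (featureCounts) and DESeq2. The deposited signal is 1 table of whole numbers, which look like counts that the authors scaled with a factor for each library before rounding. The reads were not recovered, so depth is known only from the sums of the scaled values, tests for raw counts were not run, and 25 symbols turned into dates by a spreadsheet were not assigned. Whether counting used the strand is not given in the sources used here, so paralogs and overlapping genes are uncertain.

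Groups were compared with limma 3.58.1 (R 4.3.3; lmFit, eBayes with trend) on log2(value + 1), keeping genes at 10 or more in at least 3 of the libraries compared. All genes entered the fit, Benjamini-Hochberg adjusted p-values run over all of them, and genes under 0.1 were called. Fold changes are on the log2(value + 1) scale and understate low genes. A pairwise fit used 6 libraries and the interaction used all 12. The fit was tested on simulated data. Ndufa4l2 passed the filter only over 12 libraries. Deviations from group means of same-numbered libraries correlated at 0.330 to 0.733 over 11186 genes, each library best with its own number, so the numbers were treated as pairs and the replicate block run as an alternative. The sex-linked genes of replicate 1 go against 1 pool across LPS, which limits the block in the LPS comparisons, and a block without replicate 1 was added. P-values measure the spread between these libraries, whose cells the paper describes as pooled.

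The members, complexes and lists were chosen with earlier results of these data known. Values by library are given for core subunits, for paralogs, and for the subunit of each complex and the assembly factor with the smallest p in each comparison, apart from 5 low paralogs given by their range and 1 gene under this rule that is not reported here. Positions are from GENCODE vM21 (88 of 90 genes), and promoter sequences from RefSeq (GRCm38.p6).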

Additional observations from a re-analysis of the deposited data

Results flagged for a closer look

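The effect of oxLDL on Cycs pointed in opposite directions without and with LPS: it was higher with oxLDL in 3 of 3 replicate numbers without LPS and lower in 3 of 3 with LPS. The effect with LPS minus that without was -0.42 ± 0.23 on the log2 scale (SE). The limma interaction did not pass (adjusted p = 1, and 0.657 with the replicate block), so the difference stands as a direction only. The sex-linked genes of replicate 1 differed between libraries with and without LPS, and the value in replicates 2 and 3 was -0.18 and -0.61. No other of the 89 genes moved this way.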

How the results depend on the processing

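On the scale of equal totals, 58 genes were called with LPS (median -0.40) and 48 with LPS after oxLDL (median -0.27), against 30 and 25 as deposited, and the interaction's median was 0.070. The counts over all genes on this scale are given above. With equal upper quartiles the medians were -0.15 and -0.091. On equal totals the LPS change became -0.20 for Atp5j, -0.13 for Cox6a1, -0.17 for Cox6b1, -0.10 for Cyc1, -0.068 for Ndufaf3, -0.075 for Uqcrb and -0.21 for Uqcrc1. After oxLDL it became -0.012 for Atp5b, -0.14 for Atp5j, -0.11 for Cox6b1, -0.012 for Cyc1, -0.064 for Ndufaf3, -0.10 for Uqcrb and -0.13 for Uqcrc1. These scales shift the median of all genes by construction. Leaving out 1 library, or 1 replicate number in every group (an alternative chosen after seeing the data), gave 16 to 31 calls with LPS and medians of 0.031 (without LPS 3) to 0.18 (without LPS 2), and 10 to 27 calls with LPS after oxLDL and medians of 0.014 (without oxLDL 2) to 0.13. Calls over all genes were not counted in these fits. The interaction's median ran from -0.085 (without control 3) to 0.053 (without control 2). The replicate block gave 41 and 35 calls, and without replicate 1 (chosen after seeing the data) 38 and 33, with medians of 0.059 and 0.046. The block, a pseudocount of 5, both changes of the filter, 12 libraries in 1 fit and robust variances kept both LPS counts within 1.5 times, and the 3 counts of 0 stayed at 0 in every alternative run. Of 540 alternatives of 30 calls of named genes, 438 kept the call, 88 lost it and 14 changed sign, and the cause of the losses was not tested. Cycs and Ndufaf7 kept theirs in both comparisons. Sums of scaled values limit low genes such as Cox6b2, and 3 libraries a group limit changes near the spread between replicates.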
